A study of Mus musculus with 4 samples.

Results

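The 39 interferon response genes studied here comprise 5 sensors of foreign nucleic acid, 7 regulators of the response and 27 effectors. They were chosen by symbol as genes of the interferon response, with earlier results of these data known. Of these, 36 had a probe set that names the gene alone, out of 19937 genes with such a probe set. For Isg15 and Gbp2, only probe sets shared with another gene were at hand, and Ifi44 was not analysed here. Where a gene had several probe sets, the one with the highest mean over the 4 arrays was used.

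Transcript levels were measured on Affymetrix mouse gene arrays in primary neurospheres, floating cultures grown from the stem and progenitor cells that line the lateral ventricles of C57BL/6 mice aged 9 to 12 weeks. For 2 arrays the medium held olaparib at 100 nM, a drug that blocks poly(ADP-ribose) polymerases, dissolved in 0.01% DMSO. For the 2 DMSO arrays it held 0.01% DMSO alone. Cells of both groups had been transfected with non-targeting siRNAs, exposed for 5 h to pCLIG-Pax6 viral particles that carry the neurogenic transcription factor Pax6, and cultured for 36 h. Olaparib or DMSO alone was present from the virus exposure onward. Growth factors were then withdrawn and the cells plated on laminin for 10 h before RNA was isolated. Transfected RNA and virus were thus common to all 4 arrays, and an untransduced, untransfected culture was not analysed here. The labels call the second array of each group a biological replicate and do not say whether replicates came from separate mice.

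Interferons are secreted proteins that cells release when sensors detect viral or misplaced nucleic acid. Type I interferons bind the receptor chains IFNAR1 and IFNAR2, the kinases JAK1 and TYK2 are activated, and a complex that contains STAT2 and IRF9 binds interferon-stimulated response elements in the promoters of target genes. Interferon gamma uses a separate receptor, and many of its target genes carry gamma-activated sites. The induced proteins block viral entry, translation and release, display peptides to T cells and attract leukocytes, and neural stem and progenitor cells can keep some of these genes on without infection.

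With olaparib, 8 of the 30 members that could be tested were higher and 0 were lower at an adjusted p under 0.05 (limma, Benjamini-Hochberg over 13956 genes). That is 26.7% of the members tested, while 2.84% of all genes tested were called higher and 3.37% lower. The 8 were the antiviral effectors Ifitm2, Ifit3, Bst2, Isg20 and Gbp3, the peptide transporter subunit Tap1, the chemokine Cxcl10 and the kinase sensor Eif2ak2. Their log2 changes, olaparib minus DMSO, lay between 0.27 and 0.45, or 1.21-fold to 1.37-fold. At an unadjusted p under 0.05 in limma, 10 members were higher and 1 was lower, the last being Rtp4. Over all 13956 genes tested, 1281 were higher and 1379 lower at that threshold. The changes of all 36 members ran from -0.19 to 0.45 with a median of 0.03, beside a median of 0.0042 over all genes. Hence a minority of the list rose, by small amounts.

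In 15 of the 36 members both olaparib arrays exceeded both DMSO arrays, in 8 both were lower, and in 13 the groups overlapped. Over all genes 21.3% were separated upward and 20.2% downward, so the members' downward count is near the share over all genes. With 2 arrays against 2, an exact permutation test of a single gene cannot give a two-sided p below 0.333, so the calls rest on limma's pooling of the spread across genes.

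The number of calls moved when an array was left out and when other rows shared the spread. It moved over all genes as well as among the members. The log2 changes of the 8 were 0.31 to 0.59 without olaparib replicate 1 and 0.23 to 0.39 without olaparib replicate 2. Without DMSO replicate 1 only Isg20 remained among the 8 (adjusted p = 0.00155 in limma), and without DMSO replicate 2 only Eif2ak2 remained (adjusted p = 0.0492 in limma). When limma was instead fitted to the 21704 probe sets with a mean over 6.42, where 0.0645% of probe sets were called in either direction, 0 members passed the threshold. There 10 members were higher and 0 lower at an unadjusted p under 0.05, and the lowest adjusted p of a member was 0.146. The share of all probe sets at that unadjusted threshold was not at hand. The log2 changes of the 8 were 0.22 to 0.51 without DMSO replicate 1 and 0.21 to 0.58 without DMSO replicate 2. In all 8 both olaparib arrays exceeded both DMSO arrays, so a positive change without either DMSO array was fixed in advance.

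Array background was set at a log2 value of 6.43, the 95th percentile of 1194 olfactory and vomeronasal receptor genes. All 30 members tested lay above it in the mean of both groups, as did 13397 of the 13956 genes tested. Genes were tested only where their mean exceeded 6.42, so this outcome was nearly fixed by the filter. Of all 19937 genes, 13397 lay above background in both groups. The other 6 members lay above background in neither group, namely the dynamin-like GTPases Mx1 and Mx2, the oligoadenylate synthetases Oas2 and Oas3, and the sensors Dhx58 and Zbp1. With the 95th percentile of genes of unrelated tissues as the level, 6.79, 25 members lay above it in both groups. The 5 that dropped out were Isg20, Ifitm1, Ifi35, Oas1a and Irf1. Isg20, which was called higher, had a mean of 7.08 with olaparib and 6.72 with DMSO, so its DMSO mean was not above that level. Ifitm3 and B2m, at 11.75 to 12.29 on all arrays, were above both levels.

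**Figure D1:**
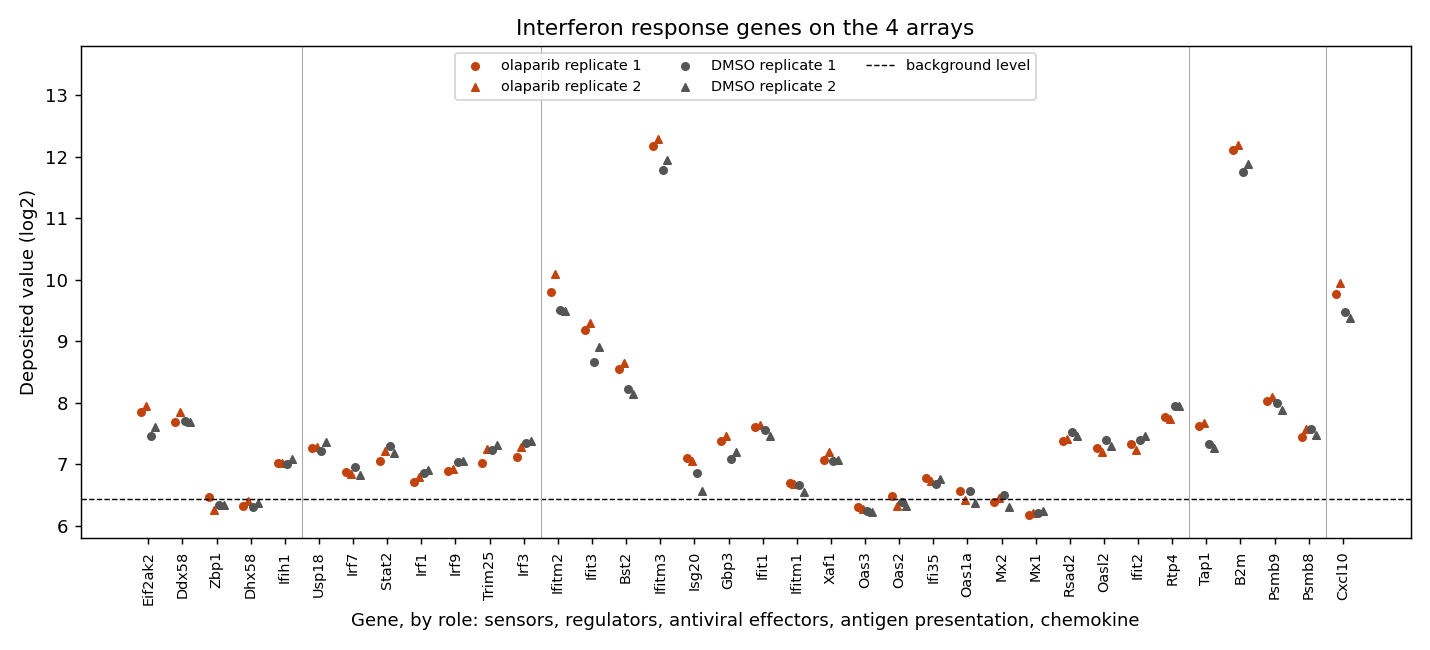
Deposited log2 value of 36 interferon response genes on each of the 4 arrays, with olaparib replicates in orange to the left of DMSO replicates in grey and genes ordered by role. The dashed line is the background level of 6.43. Ifitm2, Ifit3, Bst2, Tap1 and Cxcl10 have both olaparib points above both DMSO points, and Mx1, Oas3, Dhx58 and Zbp1 sit at or near the line.

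The promoters show how the classical switch of these genes is laid out. The table of promoters, 250 bases before to 50 bases after the start of each gene (RefSeq, GRCm38.p6), held 32 of the 39 members. The promoters were searched on both strands for 2 letter patterns, the core of the interferon-stimulated response element, GAAANNGAAA, and the gamma-activated site, TTCNNNGAA. The response element core occurred in 17 of the 32 members (53.1%), while 3.99% of 27025 genes in the table had a match. It occurred in 13 of 23 effectors (56.5%) and in 4 of 9 sensors and regulators (44.4%). Of the 8 members that rose, 6 had a match (75.0%), and of the 20 that were tested, had a promoter and did not pass, 8 had one (40.0%). Of the 4 with a promoter that were not tested or had no value, 3 had one (75.0%). The difference between these groups was not tested. The gamma-activated site occurred in 9 of the 32 members (28.1%), in 3 of the 8 that rose (37.5%), in 6 of the 20 that did not pass, and in 9.55% of all genes. Tap1 and Isg20 rose and had no response element match in this window. A match is a string of letters and does not show that a factor was bound.

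The stretches below come from 4 members that rose, Ifit3, Bst2, Cxcl10 and Gbp3, and from 2 that did not pass the threshold, Ifit1 and Rsad2, and were chosen after the values were seen. They are shown because both kinds hold the same element. Each runs 5′ to 3′ on the strand of its gene, and capitals mark matches to the response element core on either strand, with overlapping matches run together.
Ifit3 (rose, plus strand, chr19:34583333-34583456): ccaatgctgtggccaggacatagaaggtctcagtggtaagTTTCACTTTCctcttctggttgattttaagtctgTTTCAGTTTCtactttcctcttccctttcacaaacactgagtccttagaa
Bst2 (rose, minus strand, chr8:71537547-71537642): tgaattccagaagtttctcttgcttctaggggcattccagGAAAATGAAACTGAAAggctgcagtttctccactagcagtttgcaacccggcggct
Cxcl10 (rose, minus strand, chr5:92349053-92349139): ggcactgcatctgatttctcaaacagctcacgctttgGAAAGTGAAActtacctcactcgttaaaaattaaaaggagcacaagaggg
Gbp3 (rose, plus strand, chr3:142559959-142560043): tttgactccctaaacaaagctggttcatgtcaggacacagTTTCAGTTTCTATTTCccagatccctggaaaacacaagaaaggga
Ifit1 (did not pass, plus strand, chr19:34640745-34640853): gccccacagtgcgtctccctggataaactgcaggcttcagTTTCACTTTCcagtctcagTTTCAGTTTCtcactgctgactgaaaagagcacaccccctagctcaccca
Rsad2 (did not pass, minus strand, chr12:26456523-26456612): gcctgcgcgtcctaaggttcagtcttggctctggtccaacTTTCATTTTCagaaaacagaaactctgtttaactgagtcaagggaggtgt
Ifit3 and Ifit1 each carry a pair of separate matches on the same strand, whereas in Bst2 and Gbp3 the matches overlap.

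Of the 5 sensors, the proteins that recognise foreign nucleic acid, 3 could be tested and 1 rose. Eif2ak2 encodes PKR, a kinase that is activated by double-stranded RNA and halts translation. Its log2 values were 7.85 and 7.95 with olaparib, against 7.46 and 7.61 with DMSO. The groups did not overlap and were 0.237 apart at their nearest arrays, while the arrays of a group differed by 0.101 with olaparib and 0.149 with DMSO. The log2 change was 0.36 (SE 0.09, adjusted p = 0.0168 in limma). Without DMSO replicate 1 the change was 0.29 and the call was lost (adjusted p = 0.444 in limma).

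Neither helicase sensor that could be tested passed the threshold. Ddx58, which encodes RIG-I, a sensor of viral RNA ends, had 7.68 and 7.85 with olaparib, against 7.70 and 7.70 with DMSO, and its groups overlapped. Ifih1, which encodes MDA5, a sensor of long double-stranded RNA, had 7.02 and 7.02 with olaparib, against 7.0 and 7.09 with DMSO. Dhx58, which encodes LGP2, had 6.32 and 6.41 with olaparib, against 6.32 and 6.38 with DMSO. Zbp1, a sensor of left-handed nucleic acid that can trigger cell death, had 6.48 and 6.26 with olaparib, against 6.34 and 6.34 with DMSO. Dhx58 and Zbp1 were too dim to test.

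All 7 regulators could be tested, 0 passed the threshold in limma and 0 reached an unadjusted p under 0.05. With the probe sets used, all 7 had a negative change, with a median of -0.12. In Irf1, Irf9 and Irf3 both olaparib arrays lay below both DMSO arrays, but a second probe set of Irf1 had a positive change. Over all genes, 9564 of 19937 had a negative change and 20.2% were separated downward. Irf3, the transcription factor activated by the RNA and DNA sensors, had 7.13 and 7.28 with olaparib, against 7.34 and 7.39 with DMSO. Its log2 change of -0.16 (SE 0.08, adjusted p = 0.284 in limma) became -0.24 with olaparib replicate 1 alone and -0.09 with olaparib replicate 2 alone. Irf9, the DNA-binding subunit of the type I complex, had 6.89 and 6.93 with olaparib, against 7.04 and 7.05 with DMSO (log2 change -0.13, adjusted p = 0.377 in limma). Stat2, its partner, had 7.06 and 7.22 with olaparib, against 7.29 and 7.18 with DMSO, with overlapping groups.

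Irf1, a transcription factor induced by interferon gamma, had probe sets that disagreed in sign. The one used had 6.72 and 6.80 with olaparib, against 6.86 and 6.91 with DMSO, a log2 change of -0.12. The other had 6.72 and 6.54 with olaparib, against 6.54 and 6.56 with DMSO, a log2 change of 0.08. No direction can be given for Irf1. Trim25, the ubiquitin ligase that activates RIG-I, had a log2 change of -0.14 (adjusted p = 0.433 in limma). Irf7, which amplifies interferon transcription, changed by -0.03, and Usp18, which removes ISG15 from proteins and dampens the receptor, by -0.02 on the log2 scale. Irf7 and Usp18 had overlapping groups, so their changes lie within the replicate spread.

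Of the 27 effectors, 24 had a value, 20 could be tested, and 7 rose (35%) with 0 lower. Their median log2 change was 0.08, beside -0.03 for the 12 sensors and regulators, of which 10 were tested and 1 rose (10%). Both olaparib arrays were above both DMSO arrays in 14 of the 24 effectors and in 1 of the 12 sensors and regulators. Both were below in 5 effectors and in 3 sensors and regulators. Over all genes 21.3% were separated upward and 20.2% downward, and the downward counts of both classes are near that share. The difference between the classes was not tested, and their members were assigned by known role, not by values.

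**Figure D2:**
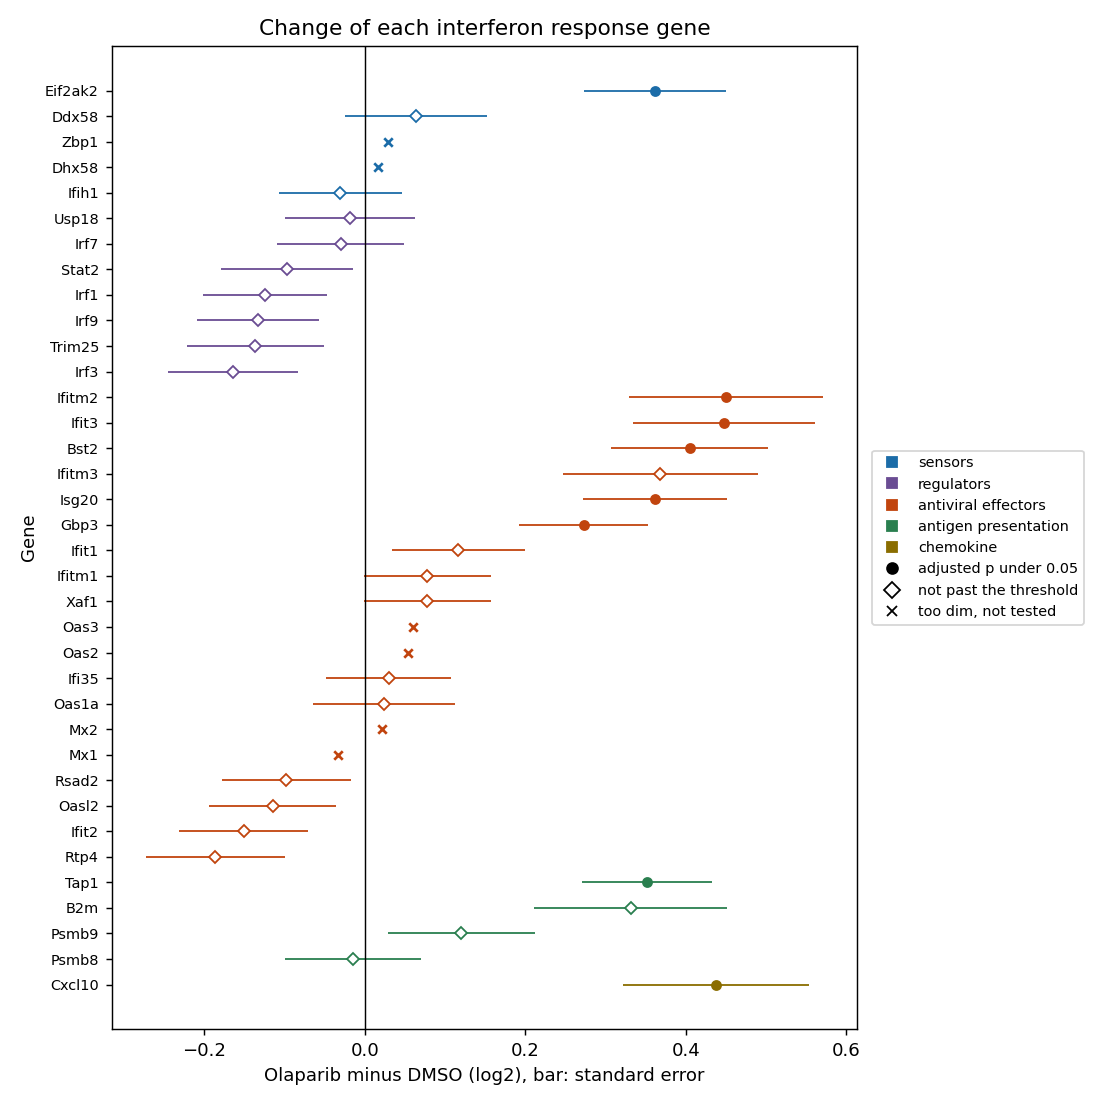
Log2 change, olaparib minus DMSO, of each of the 36 members by role, with bars for the limma standard error. Filled circles are the 8 members with an adjusted p under 0.05, open diamonds did not pass and crosses were too dim to test. The 7 regulators all lie below 0 with the probe sets used, and the 8 filled points lie between 0.27 and 0.45.

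**Figure D3:**
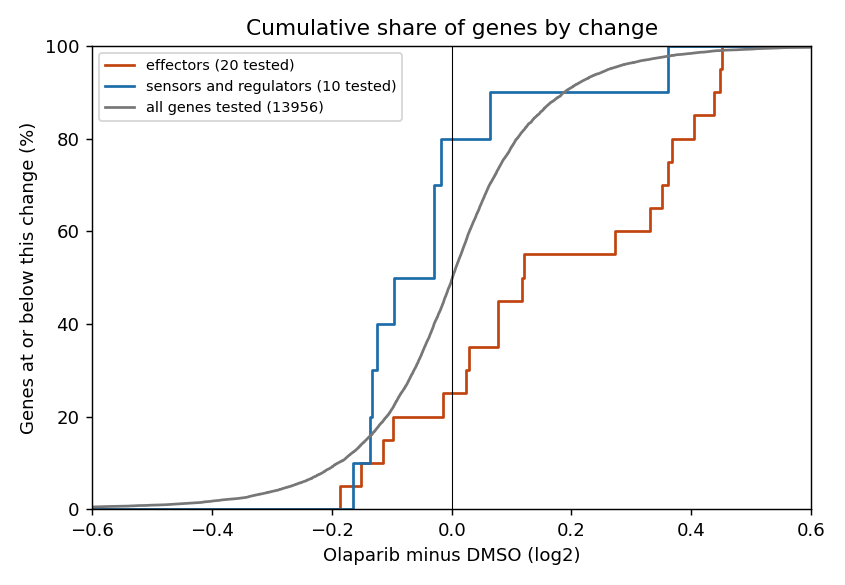
Cumulative share of genes (%) against the log2 change, olaparib minus DMSO, for 20 effectors, 10 sensors and regulators and all 13956 genes tested. The effectors' curve lies to the right of the curve of all genes over most of its range, and the sensors and regulators have 1 gene, Eif2ak2, far to the right.

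The interferon-induced transmembrane proteins sit in cell membranes and hinder fusion of viruses. Ifitm2 had 9.81 and 10.10 with olaparib, against 9.51 and 9.49 with DMSO, and its groups were 0.298 apart. The log2 change was 0.45 (SE 0.12, adjusted p = 0.0286 in limma), a 1.37-fold rise, and the olaparib arrays differed from each other by 0.288. Its 2 other probe sets gave log2 changes of 0.34 and 0.31, also without overlap of the groups. How far the 3 probe sets detect transcripts of related genes was not tested. The call was lost with the mean of the 3 probe sets (adjusted p = 0.0687 in limma) and without either DMSO array.

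Ifitm3, the family member most studied for its block of influenza virus, had 12.18 and 12.29 with olaparib, against 11.79 and 11.94 with DMSO. The groups did not overlap, and the log2 change of 0.37 (SE 0.12) did not pass (adjusted p = 0.0806 in limma). Ifitm1 had 6.70 and 6.68 with olaparib, against 6.67 and 6.55 with DMSO, a log2 change of 0.08. Ifitm2, Ifitm1 and Ifitm3 are neighbours on chromosome 7 in the RefSeq gene table, and the difference between their changes was not tested.

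The IFIT proteins bind viral RNA and hinder its translation. Ifit3 had 9.18 and 9.29 with olaparib, against 8.66 and 8.92 with DMSO, and the DMSO arrays differed by 0.254, almost the gap of 0.264 between the groups. Its log2 change was 0.45 (SE 0.11, adjusted p = 0.0207 in limma). Ifit3b, a close copy of Ifit3 that is not a member, had 7.74 and 7.91 with olaparib, against 7.16 and 7.26 with DMSO, a log2 change of 0.62 (SE 0.09, adjusted p = 0.000137 in limma). How far the probe sets of these copies detect each other's transcripts was not tested.

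The other IFIT genes among the members did not pass the threshold. Ifit1, which binds RNA caps that lack methylation, had 7.61 and 7.64 with olaparib, against 7.56 and 7.46 with DMSO (log2 change 0.12, adjusted p = 0.516 in limma). Ifit2 had 7.33 and 7.23 with olaparib, against 7.39 and 7.47 with DMSO (log2 change -0.15, adjusted p = 0.332 in limma). Ifit2 lies next to Ifit3 on chromosome 19 in the RefSeq gene table, with Ifit1 within 5 genes, and the promoters of Ifit3 and Ifit1 each hold a pair of response elements.

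Bst2 encodes tetherin, which holds budding virus particles on the cell surface. Its values were 8.55 and 8.64 with olaparib, against 8.23 and 8.15 with DMSO. The gap of 0.318 between the groups was the widest among the 8 members that rose and exceeded the differences within groups, 0.0889 with olaparib and 0.0855 with DMSO. The log2 change was 0.41 (SE 0.10, adjusted p = 0.0153 in limma).

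Isg20, an exonuclease that degrades viral RNA, had 7.10 and 7.06 with olaparib, against 6.87 and 6.57 with DMSO. The DMSO arrays differed by 0.299, more than the gap of 0.190 between the groups. The log2 change was 0.36 (SE 0.09, adjusted p = 0.0175 in limma), 0.51 without DMSO replicate 1 and 0.21 without DMSO replicate 2 (adjusted p = 0.514 in limma). Gbp3, a guanylate-binding GTPase of cell-autonomous defence, had 7.38 and 7.45 with olaparib, against 7.09 and 7.20 with DMSO (log2 change 0.27, SE 0.08, adjusted p = 0.0472 in limma). Gbp3 was the member nearest the threshold and lost its call under 7 of the 15 alternatives, leaving out olaparib replicate 2 or either DMSO array among them.

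The remaining antiviral effectors did not pass the threshold. Rtp4, an interferon-induced receptor-transporting protein, had 7.78 and 7.74 with olaparib, against 7.95 and 7.95 with DMSO. Its log2 change of -0.19 (SE 0.09, adjusted p = 0.245 in limma) was the most negative of the members. Rsad2, which encodes viperin, an enzyme that makes a chain-terminating nucleotide, had 7.39 and 7.41 with olaparib, against 7.53 and 7.46 with DMSO. Oasl2, of the oligoadenylate synthetase family, had 7.26 and 7.21 with olaparib, against 7.39 and 7.30 with DMSO. In Rtp4, Rsad2 and Oasl2 both olaparib arrays lay below both DMSO arrays.

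Xaf1, a partner of the apoptosis inhibitor XIAP, had 7.07 and 7.21 with olaparib, against 7.05 and 7.07 with DMSO (log2 change 0.08). Ifi35 had 6.78 and 6.73 with olaparib, against 6.68 and 6.77 with DMSO. Oas1a, whose product activates the nuclease RNase L, had 6.57 and 6.42 with olaparib, against 6.57 and 6.37 with DMSO. Both Ifi35 and Oas1a had overlapping groups. The dim genes Oas2, Oas3, Mx1 and Mx2 had log2 changes of 0.05, 0.06, -0.03 and 0.02, all at values near background.

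Among the 4 genes of antigen presentation by class I molecules, 1 rose. Tap1, a subunit of the transporter that carries peptides into the endoplasmic reticulum, had 7.63 and 7.68 with olaparib, against 7.33 and 7.27 with DMSO. Its groups were 0.301 apart, while arrays of a group differed by 0.0430 with olaparib and 0.0579 with DMSO. The log2 change was 0.35 (SE 0.08, adjusted p = 0.0114 in limma).

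B2m, the light chain of class I molecules, had 12.11 and 12.19 with olaparib, against 11.75 and 11.88 with DMSO, without overlap (log2 change 0.33, SE 0.12, adjusted p = 0.115 in limma). The immunoproteasome subunit Psmb9 had 8.04 and 8.09 with olaparib, against 8.0 and 7.88 with DMSO (log2 change 0.12, adjusted p = 0.553 in limma). Psmb8, the partner subunit, had 7.45 and 7.58 with olaparib, against 7.58 and 7.48 with DMSO, and its groups overlapped. Psmb9, Tap1 and Psmb8 are neighbours on chromosome 17 in the RefSeq gene table. Of 14 other antigen presentation genes tested, 0 passed in limma and 0 reached an unadjusted p under 0.05, with log2 changes from -0.17 for Tapbp to 0.15 for Pdia3.

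Cxcl10, the single chemokine among the members, draws T cells that carry CXCR3. It had 9.77 and 9.95 with olaparib, against 9.47 and 9.38 with DMSO, and the groups were 0.30 apart. The log2 change was 0.44 (SE 0.12, adjusted p = 0.0264 in limma), and the call was lost without either DMSO array and with median centring of the arrays.

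The receptors of interferon moved in both directions. Of 9 ligand and receptor genes tested, 2 rose and 1 fell, where 2.84% of all genes tested were higher and 3.37% lower. Ifnar2, a chain of the type I receptor, had 8.60 and 8.98 with olaparib, against 8.30 and 8.27 with DMSO, a log2 change of 0.51 (SE 0.12, adjusted p = 0.0106 in limma). The olaparib arrays lay apart, with changes of 0.31 against the DMSO mean for olaparib replicate 1 alone and 0.70 for olaparib replicate 2 alone. Its partner chain Ifnar1 had 8.38 and 8.51 with olaparib, against 8.46 and 8.52 with DMSO, with overlapping groups (log2 change -0.04, adjusted p = 0.898 in limma).

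The chains of the interferon gamma receptor changed in opposite directions. Ifngr2 had 9.31 and 9.48 with olaparib, against 9.07 and 8.90 with DMSO (log2 change 0.41, SE 0.11, adjusted p = 0.0327 in limma). Ifngr1, the ligand-binding chain, had 7.76 and 7.86 with olaparib, against 8.19 and 8.38 with DMSO, a log2 change of -0.47 (SE 0.10, limma adjusted p = 0.00462). Without DMSO replicate 2, neither chain passed (adjusted p = 0.591 for Ifngr2 and 0.176 for Ifngr1 in limma), nor did Ifnar2 (adjusted p = 0.110 in limma), and leaving out DMSO replicate 1 ended the calls of Ifngr2 (adjusted p = 0.218 in limma) and Ifnar2 (adjusted p = 0.0898 in limma). Of the interferon genes themselves, Ifnb1, Ifna4, Ifne, Ifng and Ifnk lay above background in neither group. Ifna2, Ifna5 and Ifnl2 lay above it in both groups and were tested. Their log2 changes were -0.03, 0.00 and -0.03 with overlapping groups, and none passed in limma (adjusted p = 0.913, 0.999 and 0.954).

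Of 26 signalling genes tested, 1 rose and 0 fell, a count near the 2.84% of all genes tested that were higher. Myd88, the adaptor of most Toll-like receptors, had 7.03 and 7.01 with olaparib, against 6.78 and 6.75 with DMSO (log2 change 0.26, SE 0.08, adjusted p = 0.0476 in limma). That call was lost without either DMSO array. Neither the receptor kinases nor the adaptors between sensors and Irf3 passed, with log2 changes of -0.20 for the kinase gene Jak1, 0.03 for Tyk2, 0.22 for the mitochondrial adaptor gene Mavs and 0.06 for Tbk1, the kinase that activates Irf3.

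A further 37 interferon-induced genes outside the member list were tested, of which 1 rose and 1 fell, Ifit3b and Plscr2. Plscr2, of the phospholipid scramblase family, had 6.55 and 6.66 with olaparib, against 7.03 and 7.24 with DMSO, and its log2 change was -0.54 (SE 0.08, limma adjusted p = 0.00046). The median log2 change of the 50 genes of that list with a value was 0.02. These shares, 1 of 37 in each direction, are near the 2.84% and 3.37% of all genes tested.

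**Figure D4:**
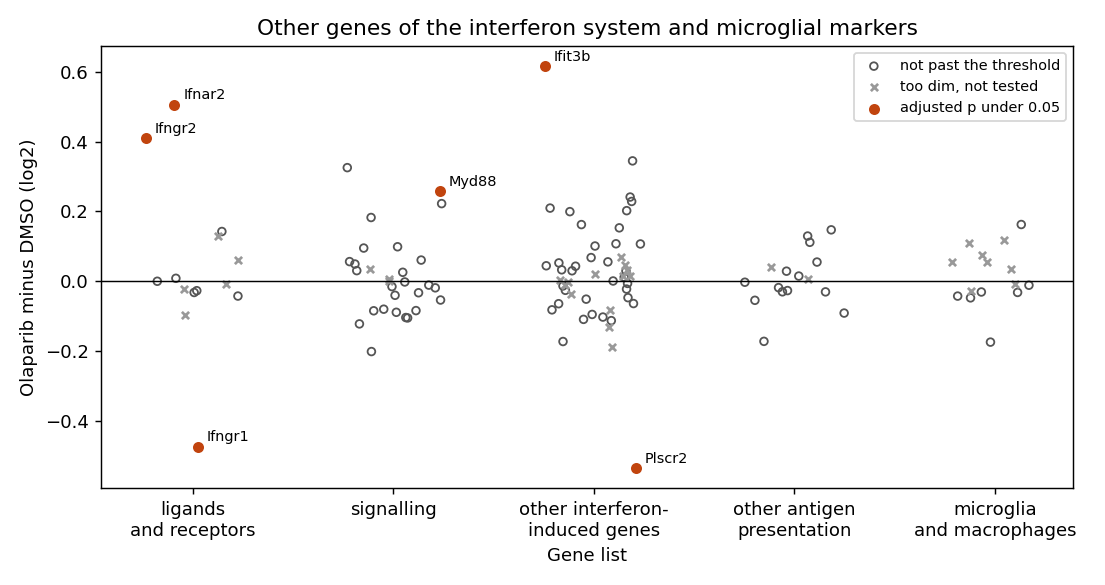
Log2 change, olaparib minus DMSO, of genes with a value in 5 lists outside the member list, spread sideways within a list for legibility. Filled points passed an adjusted p of 0.05 in limma, open circles did not and crosses were too dim to test. Ifnar2, Ifngr2, Myd88 and Ifit3b lie above 0, Ifngr1 and Plscr2 below, and none of the microglial markers is filled.

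Markers of other cell types were examined beside these results. In bulk RNA, a larger number of cells of a type and more RNA per cell cannot be told apart. All 13 neural stem, progenitor and neuronal markers with a value lay above background in both groups. Of 15 microglial and macrophage markers, 6 lay above background in both groups. The same level was passed in both groups by 13 of 29 genes of unrelated tissues, 2 of 5 lymphocyte markers and 1 of 7 endothelial markers. Passing it thus does not show that microglia were present. Among the microglial markers, 7 could be tested and 0 passed in limma (1 at an unadjusted p under 0.05, P2ry12, with a log2 change of -0.17). The log2 values of the 15 microglial markers summed to 97.6 and 96.0 with olaparib, against 96.4 and 96.7 with DMSO. Their mean on each array was 6.40 to 6.51, beside 6.41 to 6.47 for genes of unrelated tissues. At values so near background, the sums cannot show whether microglial content changed. The microglial markers above background in both groups were Tmem119, P2ry12, Cx3cr1, Trem2, C1qa and Cd68, and Tyrobp was above it with DMSO alone. The other 8, Aif1, Csf1r, Itgam, Ptprc, C1qb, C1qc, Laptm5 and Fcer1g, lay above it in neither group. At the unrelated-tissue level of 6.79, Trem2 alone stayed above in both groups. The part of microglial RNA in the interferon results was not tested. The summed neural markers were 125 and 128 with olaparib, against 131 and 131 with DMSO, and 3 of them, Nrep, Dcx and Gfap, were lower in limma. The part of this shift in the interferon results was not tested.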

How the data were processed

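The authors deposited log2 values, 1 per probe set and array. Their background correction, normalization and summary of probes are not given in the sources used here. RNA (40 ng) was amplified before labelling, per the labels' protocols, and 4 arrays limit the precision. Array medians were 6.60 to 6.68.

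The platform annotation gave 1 gene for 21640 of the 34760 probe sets, several for 1321, and did not list 11799. Of the 19937 genes, 19855 matched the RefSeq table, and 954 had more than 1 probe set. Genes whose mean exceeded the 30th percentile (6.42) were tested, 13956 in all, using limma 3.58.1 in R 4.3.3 (lmFit, then eBayes with an intensity trend) as olaparib minus DMSO, two-sided, with Benjamini-Hochberg over all genes tested, threshold 0.05. No pairing was used: replicate numbers here follow deposit order and only name arrays, and the labels tie no olaparib array to a DMSO array. P-values measure only the spread between these arrays, which may be technical. No batches were given.

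The members, lists and tests were chosen with earlier results of these data known. Named in full were members past the threshold and others with the largest changes, up to 12, and in each other list up to 4 genes past the threshold plus fixed upstream genes. Values of the members that did not pass are given by role. On simulated data with 200 of 13956 genes changed, the fit recovered 50.3% at 1.3-fold, 93.1% at 1.5-fold and 100% at 2-fold, with 5.03% false calls. These shares hold for the simulated setting only. They cannot show how many of the 397 higher and 471 lower calls in these data are false. Alternatives were other filters, scalings, variance models, probe set rules and left-out arrays, with cyclic loess added after seeing the data. Figures were drawn with matplotlib 3.10.9.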

Additional observations from a re-analysis of the deposited data

How the results depend on the processing

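The count of 8 members higher was 5 with no filter on low values, 3 with median centring and 0 with all probe sets in 1 fit, and 1 to 10 when each array was left out. Under the other 9 settings, namely the 50th percentile filter, quantile and cyclic loess normalization, a floor, robust eBayes, eBayes without trend, weights for arrays, probe sets averaged per gene and an adjusted p of 0.1, it was 7 to 9. Members lower stayed at 0 under all of these settings. With median centring, 283 of all genes tested were called higher. Over all genes, the 397 higher became 257 with no filter, 1 with all probe sets, 606 at an adjusted p of 0.1 and 97 to 1274 with an array left out. The 471 lower became 774 with quantile normalization, 732 with cyclic loess, 11 with all probe sets, 715 at an adjusted p of 0.1 and 161 to 1032 with an array left out. With an array left out, the median log2 change was 0.0306 to 0.0676 for all members, -0.0562 to -0.0280 for sensors and regulators and 0.0637 to 0.129 for effectors. Left-out arrays and the probe set fit change the samples or rows that set the spread. The cause of the shifts was not tested under any setting. Ifitm3 passed under 5 and B2m under 2 of the 15 alternatives that kept the threshold of 0.05. A group reduced to 1 array is assumed to vary like the other, and the median SD was 0.0767 with olaparib and 0.0483 with DMSO. The part of this difference in calls lost or gained with an array left out was not tested. Genes near 6.43 carry little signal over background.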

Other observations

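Probe sets shared with another gene were left out of the member values and counts. The probe set shared by Isg15, which encodes a ubiquitin-like modifier, and Gm9706 had log2 values of 7.52 and 7.58 with olaparib, against 7.57 and 7.56 with DMSO, with overlapping groups. The probe set shared by the guanylate-binding protein genes Gbp2 and Gbp2b had 7.77 and 7.62 with olaparib, against 7.98 and 7.90 with DMSO. Its log2 change was -0.24 (SE 0.10, adjusted p = 0.335 in the limma fit over all probe sets), opposite in sign to that of Gbp3. A probe set shared by Oas1a and Oas1g had 6.45 and 6.34 with olaparib, against 6.32 and 6.28 with DMSO, near the background level of 6.43.

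Several interferon-induced genes encode relatives of the polymerases that olaparib inhibits. None passed the threshold in limma, with log2 changes of 0.04 for Parp9 (adjusted p = 0.855), -0.06 for Parp10 (adjusted p = 0.768), -0.05 for Parp12 (adjusted p = 0.851) and -0.10 for Parp14 (adjusted p = 0.541). Dtx3l, the partner of Parp9 in ubiquitin ligation, changed by 0.03 (adjusted p = 0.918 in limma). Tlr3, a receptor for double-stranded RNA, had a log2 change of 0.33 and did not pass (adjusted p = 0.0582 in limma), and Pml, the scaffold of nuclear bodies, had 0.20 (adjusted p = 0.131 in limma).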
